A study of Mus musculus with 6 samples.

Results

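Pdx1, Ptf1a, Nkx6-1, Nkx6-2, Prox1, Hhex and Nr5a2 are transcription factors that set up the pancreatic bud and divide its progenitors between exocrine and endocrine fates. They were followed as 7 genes of 11023 named on the array, with 13 of its 21888 probes, each probe being one whose only gene symbol in the platform annotation was that of 1 of these genes. Pdx1 and Nkx6-2 had 3 probes each, Nkx6-1 and Prox1 had 2 each, and Ptf1a, Hhex and Nr5a2 had 1 each. The RNA came from the pancreas at embryonic day 12.5 of Sox4 knockout (Sox4-/-) embryos and of wild-type littermates, and the question of the study was how gene expression across the genome differs when the transcription factor Sox4 is missing. Each of 6 spotted arrays carried both RNAs, the wild-type RNA as channel 1 and the knockout RNA as channel 2 throughout, so a bias of a probe towards a channel and a difference between the RNAs cannot be told apart. The deposited value is a log2 ratio per probe and array. Per the label of arrays 1 and 2, pancreases were pooled in 2 groups before RNA isolation and the RNA was amplified linearly, so the arrays may be repeats of the same pools. All p-values therefore measure array-to-array spread, which may be technical, rather than the spread among embryos. Ratios above 0 are taken as higher in knockout RNA. That direction is only likely: it rests on the order of the channels and on the sample titles, and neither labels nor files state it.

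Pdx1 is the homeodomain factor without which the pancreas does not grow beyond a bud, and later it drives insulin transcription in beta cells. Ptf1a is a basic helix-loop-helix factor that joins an E-protein and Rbpj or Rbpjl into the PTF1 complex, which commits progenitors to pancreas and then drives acinar enzyme genes together with the orphan nuclear receptor Nr5a2. Nkx6-1 and Nkx6-2 are homeodomain paralogs that oppose Ptf1a in the trunk of the branching epithelium and favour endocrine fate there, while Prox1 and Hhex are homeodomain factors needed from the earliest liver and pancreas buds onward. Several of these genes are not particular to pancreas: Hhex, Prox1 and Nr5a2 are also active in embryonic liver, Prox1 in lymphatic endothelium, Pdx1 in duodenum and Nkx6-1 and Nkx6-2 in the ventral neural tube.

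The Nr5a2 and Hhex probes were past the threshold, so the DNA just upstream of their annotated starts is shown, taken from RefSeq on build GRCm38.p6. Nr5a2 lies on the minus strand at chr1:136842562-136960448 and has 2 annotated starts, and Hhex lies on the plus strand at chr19:37434841-37440731. Each line gives the 250 bases before a start, 5′ to 3′ on the strand of the gene. Capitals mark any match to ACAAAG or ACAATG on either strand (CTTTGT or CATTGT on the strand shown), which are core letters of sites bound by Sox proteins.
Nr5a2 start 136960448, chr1:136960449-136960698: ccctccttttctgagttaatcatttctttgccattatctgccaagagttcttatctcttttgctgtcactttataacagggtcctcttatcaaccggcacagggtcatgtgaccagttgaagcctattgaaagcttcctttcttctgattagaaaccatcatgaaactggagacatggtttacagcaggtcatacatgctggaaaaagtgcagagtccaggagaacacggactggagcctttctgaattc
Nr5a2 start 136953630, chr1:136953631-136953880: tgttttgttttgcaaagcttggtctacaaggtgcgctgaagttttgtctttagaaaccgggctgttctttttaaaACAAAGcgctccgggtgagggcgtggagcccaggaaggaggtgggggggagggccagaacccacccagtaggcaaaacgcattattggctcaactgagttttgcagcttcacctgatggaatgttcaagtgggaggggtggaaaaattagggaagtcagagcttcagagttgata
Hhex start 37434841, chr19:37434591-37434840: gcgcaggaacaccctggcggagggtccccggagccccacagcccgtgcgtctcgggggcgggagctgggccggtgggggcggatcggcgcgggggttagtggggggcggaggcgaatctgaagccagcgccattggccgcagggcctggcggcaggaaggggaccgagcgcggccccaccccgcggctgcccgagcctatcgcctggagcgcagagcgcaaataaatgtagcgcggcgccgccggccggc
The more internal Nr5a2 window held 1 match, whose leftmost base lies 175 bases before the start, and the other Nr5a2 window and the Hhex window held none. Of the 9 windows of the 7 genes, 2 held a match, the other being 1 of 2 Prox1 windows, against 25.2% of 32851 windows of the same length in the RefSeq table. GC content was 76.0% in the Hhex window and 43.2% and 49.6% in the Nr5a2 windows, against a median of 52.4% over all windows. A match describes letters in this window and not binding, which was not measured.

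The deposited medians of arrays 1 to 6 were -0.007, 0.077, 0.14, 0.07, 0.20 and 0.14, and each array was centred on its own. Array 2 had the widest spread, its scaled median absolute deviation being 0.545 where the other arrays had 0.27 to 0.442. Arrays 1 and 2 correlated with each other across probes (Spearman's rho 0.52) as did arrays 3 to 6 (0.44 to 0.58), against 0.06 to 0.32 between these sets, so values are also given by set. Ratios at the deposited ceiling of 16.61, which is log2 of 1e+05, were treated as missing. The targeted gene gave no check of the labels, since both Sox4 probes had means near 0 (-0.025 ± 0.25 and -0.091 ± 0.13, SD, n = 6) and the labels do not say where they lie relative to the deleted part. A ratio gives no level, so the identity of the tissue could not be checked from marker levels.

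Among the fate genes, the Nr5a2 probe fell and the Hhex probe rose in the RNA labelled knockout. The remaining 11 probes, those of Pdx1, Ptf1a, Nkx6-1, Nkx6-2 and Prox1, did not pass the threshold of an adjusted p under 0.05 (limma, Benjamini-Hochberg over all 21247 tested probes). All 13 probes had values on at least 4 arrays and were tested. The call rate over all tested probes was 5.49%, with 1.96% above 0 and 3.53% under 0, so 1 member probe on each side of 13 is a count too small to set against it. At an unadjusted p under 0.05 there were 6 of 13 member probes (46.2%), against 27.6% of all tested probes. The median of the 13 mean log2 ratios was 0.39, with 10 of 13 above 0, against a median of 0.026 and 53.7% above 0 over all tested probes. Probes of the same gene are not independent, and Nkx6-1 and Nkx6-2 alone had 2 and 3 of the 13. The median itself was the mean of Nkx6-1 probe MMC02H01. These shares therefore do not show a shift of the 7 genes as a list. The member probes also varied more between arrays, with a median SD of 0.46 against 0.29 over all tested probes. Per the probe names, many of them came from source plates MMC01, MMC02, MMC03 and MMC13. The median SD over all tested probes of these plates was 0.42, 0.41, 0.87 and 0.47. It was 0.315, 0.27 and 0.27 over probes named PX, ZA and ZX. In bulk RNA, fewer cells of a type and less RNA per cell cannot be told apart.

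**Figure D1:**
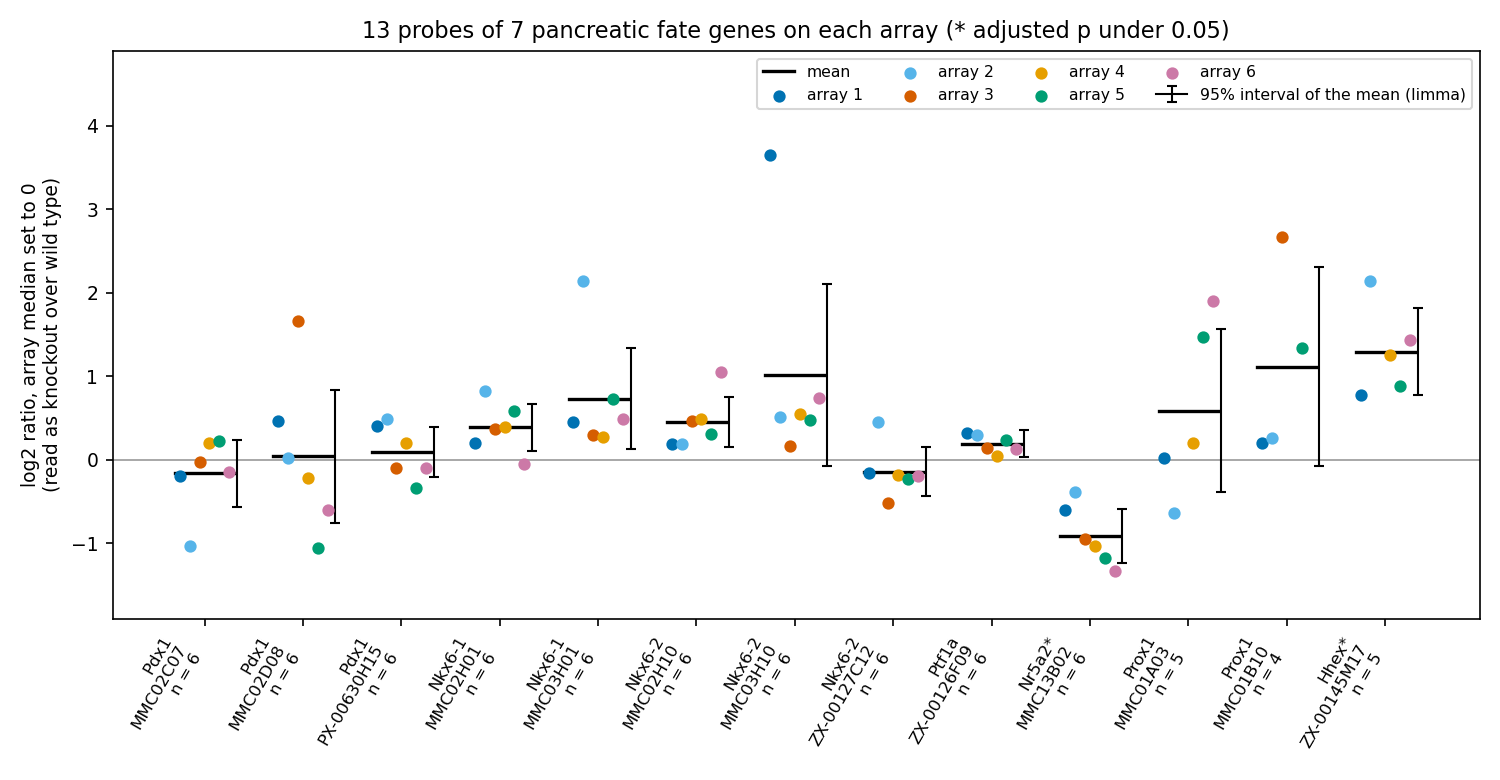
Centred log2 ratio (vertical axis) of each of the 13 probes (horizontal axis) on each array (coloured points), with the mean (bar) and its 95% interval from limma (error bar). All 6 Nr5a2 values lie under 0 and all 5 Hhex values above 0, while the Pdx1 probes scatter around 0.

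Of the factors that drive the acinar programme, Nr5a2 fell and Ptf1a did not pass the threshold. Nr5a2 (probe MMC13B02) was at -0.59, -0.39, -0.95, -1.03, -1.18 and -1.32 on arrays 1 to 6. Every array lay under 0, and arrays 1 and 2 were closer to 0 than any of arrays 3 to 6. The mean log2 ratio was -0.91 ± 0.36 (SD, n = 6), a 1.88-fold lower ratio with a 95% interval of the mean from -1.23 to -0.59 and a limma adjusted p of 0.0302. The mean was -0.49 on arrays 1 and 2 and -1.12 on arrays 3 to 6, a difference of 0.63 (limma p 0.00867 unadjusted, 0.307 adjusted). The call was lost on arrays 3 to 6 alone (adjusted p 0.0648), a fit in which only 13 of 20657 tested probes passed. The unadjusted limma p of Nr5a2 was 0.000103 there, against 0.000302 with all arrays. Per the probe names, the wells next to this probe on its source plate were also under 0, at -0.68 ± 1.38 for an unnamed probe and -0.76 ± 0.47 for Ucn3, a peptide hormone gene, with limma adjusted p of 0.393 and 0.0535, and the part of plate position in the Nr5a2 value was not tested.

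Ptf1a (probe ZX-00126F09) was at 0.32, 0.30, 0.14, 0.048, 0.23 and 0.13 on arrays 1 to 6. Its values were all above 0 and the tightest of the 13 probes. The mean of 0.20 ± 0.11 (SD, n = 6) had a 95% interval from 0.034 to 0.36, which is 1.02 to 1.28-fold, and a limma adjusted p of 0.127. A lowering of Ptf1a ratios like that of Nr5a2 lies outside that interval. These values rest on median centring, and with quantile normalization the Ptf1a probe passed at 0.30 (adjusted p 0.0465), as did Nkx6-1 probe MMC02H01 (0.50, adjusted p 0.0457) and Nkx6-2 probe MMC02H10 (0.55, adjusted p 0.0389).

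Hhex, which is needed for liver and ventral pancreas budding, had the highest mean of the 13 probes. Its probe ZX-00145M17 was at 0.77, 2.15, 1.25, 0.88 and 1.44 on arrays 1, 2, 4, 5 and 6. All of these lay above 0, with array 2 the highest, and array 3 stood at the ceiling. The mean log2 ratio was 1.30 ± 0.55 (SD, n = 5), a 2.46-fold higher ratio with a 95% interval from 0.78 to 1.82 and a limma adjusted p of 0.0368. All 5 deposited ratios were quotients of whole numbers up to 20 within 6e-04 in log2, the smallest being 17/10, 14/3, 5/2, 19/9 and 3/1, against 22.6% of the values of all tested probes. On array 2 the Hhex probe and 1 Nkx6-1 probe held the same deposited value, 2.222. The channel signals were not used here. The call did not hold with the ceiling kept as a value (mean 3.82, adjusted p 0.321), with the array set as a term (1.33, adjusted p 0.0528) or on arrays 3 to 6 alone (1.19, adjusted p 0.0673), and with such quotients left out the probe could not be fitted. The neighbouring wells, of Fbxl12 and Commd6, were at 0.64 ± 0.73 and 0.51 ± 0.48.

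Prox1, a homeodomain factor of early liver and pancreas progenitors, was measured by 2 probes annotated to the same sequence record, and neither passed. Probe MMC01A03 was at 0.022, -0.64, 0.20, 1.47 and 1.90 on arrays 1, 2, 4, 5 and 6, with array 3 at the ceiling. Probe MMC01B10 was at 0.20, 0.26, 2.67 and 1.34 on arrays 1, 2, 3 and 5, with array 6 at the ceiling and array 4 missing. Both probes were high on array 5 and low on arrays 1 and 2. Their means were 0.59 ± 1.06 (SD, n = 5) and 1.12 ± 1.16 (SD, n = 4), with limma adjusted p of 0.372 and 0.2004. With 1 array left out, the mean of MMC01A03 ran from 0.26 without array 6 to 0.90 without array 2, and with the ceiling kept as a value the 2 means were 3.23 and 4.18. The intervals of the means, -0.38 to 1.57 and -0.078 to 2.31, hold both no change and a change larger than that of Nr5a2. Arrays 1 and 2 had a mean of -0.31 at the former and 0.23 at the latter, against 1.19 and 2.01 on the measured ones of arrays 3 to 6 (limma p of the set difference 0.0493 and 0.0273 unadjusted, 0.324 and 0.317 adjusted).

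The trunk factors Nkx6-1 and Nkx6-2 had ratios above 0 at 4 of their 5 probes, and none of the 5 passed. Nkx6-1 was at 0.21, 0.83, 0.37, 0.40, 0.59 and -0.051 on arrays 1 to 6 at probe MMC02H01. At probe MMC03H01 it was at 0.45, 2.15, 0.30, 0.27, 0.73 and 0.49. Array 2 was the highest at both probes, and only array 6 at the former lay under 0. The means were 0.39 ± 0.30 and 0.73 ± 0.71 (SD, n = 6), with limma adjusted p of 0.0992 and 0.127 and 95% intervals from 0.11 to 0.67 and 0.13 to 1.33. Without array 2, probe MMC03H01 had a mean of 0.45 and an adjusted p of 0.0487.

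Nkx6-2 probes disagreed in sign. Probe MMC02H10 was at 0.19, 0.20, 0.47, 0.50, 0.31 and 1.05 on arrays 1 to 6. Probe MMC03H10 was at 3.65, 0.51, 0.17, 0.55, 0.48 and 0.74, so array 1 lay far above the others. Probe ZX-00127C12, annotated to another sequence record of the gene, was at -0.16, 0.46, -0.52, -0.18, -0.23 and -0.20, under 0 on every array except array 2. The means were 0.45 ± 0.32, 1.02 ± 1.30 and -0.14 ± 0.32 (SD, n = 6), with limma adjusted p of 0.0811, 0.202 and 0.501. With array weights, MMC02H10 passed at 0.52 (adjusted p 0.0409). The 95% intervals of MMC02H10 (0.15 to 0.75) and ZX-00127C12 (-0.44 to 0.16) overlapped narrowly. As 1 value per gene, the mean of all its probes, Nkx6-2 was at 0.44 and Nkx6-1 at 0.56 (limma adjusted p 0.132 and 0.104).

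The MMC02 and MMC03 probes of Nkx6-1 and Nkx6-2 sit, per their names, in wells 1 and 10 of row H on 2 source plates. Across that row, 10 genes had a probe on both plates with the same symbol and sequence record, which shows how well such repeats agreed. Their means had the same sign on both plates for 7 of 10 genes, with a median absolute difference of 0.41 in log2 and Pearson's r of 0.83 across these 10 genes, which share the arrays and are not independent replicates. Nkx6-1 and Nkx6-2 were above 0 on both plates, while the Sox4 probe next to Nkx6-2 was near 0 on both. The well on the other side of Nkx6-2 on plate MMC02, an Nkx2-2 probe, was at 1.04 ± 1.89 (n = 4, limma adjusted p 0.414). Its Pearson's r with the Nkx6-2 probe MMC02H10 was 0.9996 over those 4 arrays. That of the Sox4 probe on this plate was -0.26. The part of well position in the Nkx6-2 value was not tested. Plate MMC03 was the noisier plate as a whole, with a median SD of 0.87 over 74 tested probes against 0.41 over 92 probes on plate MMC02, and 57.9% of its values were quotients of small whole numbers. Only 10 of the 74 probes on plate MMC03 had a gene symbol.

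**Figure D2:**
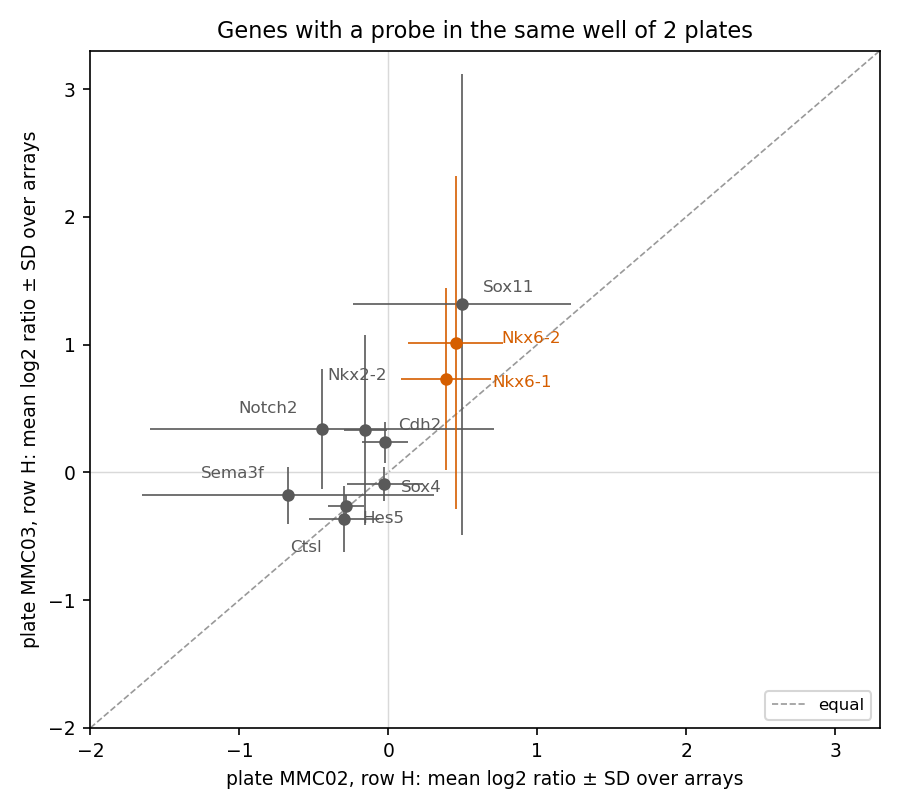
Mean log2 ratio of 10 genes at row H of plate MMC02 (horizontal axis) and in the same well of plate MMC03 (vertical axis), with the SD over arrays as bars and equality as the dashed line. Nkx6-1 (0.39 and 0.73) and Nkx6-2 (0.45 and 1.02) lie above 0 on both plates.

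Pdx1, the factor that defines the pancreatic bud, showed no shift that its probes shared. Probe MMC02C07 was at -0.19, -1.03, -0.024, 0.20, 0.22 and -0.14 on arrays 1 to 6. Probe MMC02D08, annotated to the same sequence record, was at 0.46, 0.021, 1.67, -0.22, -1.06 and -0.60. Probe PX-00630H15, from another record, was at 0.40, 0.49, -0.095, 0.20, -0.33 and -0.091. Each of the 3 probes lay on both sides of 0, and array 6 was the one array under 0 at all of them. The means were -0.16 ± 0.46, 0.046 ± 0.95 and 0.097 ± 0.32 (SD, n = 6), with limma adjusted p of 0.566, 0.941 and 0.648. Their 95% intervals ran from 0.68 to 1.18-fold, 0.59 to 1.79-fold and 0.87 to 1.31-fold. All 3 intervals, which measure only the spread between arrays, leave out a change of 2-fold in either direction. Quotients of small whole numbers made up 3 of the 6 values of MMC02D08 and 2 of the 6 of MMC02C07, and none of those of PX-00630H15. As 1 value per gene, Pdx1 was at -0.0064 with an adjusted p of 0.979.

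The Nr5a2 and Hhex calls did not hold in each setting. Their means kept their sign wherever they could be fitted. Since all 6 Nr5a2 values lay under 0 and all 5 Hhex values above 0, leaving out or weighting arrays could not change it. The kept sign is therefore no separate support. With any 1 array left out, the Nr5a2 mean stayed between -1.02 and -0.83 and its adjusted p between 0.0313 and 0.0913, passing only without array 2. The Hhex mean stayed between 1.09 and 1.43 and its adjusted p between 0.0414 and 0.104, again passing only without array 2. Array 3 gave no Hhex value, so the Hhex mean was the same without it and only its adjusted p moved, to 0.0727. These fits also left few calls among all probes, 18, 45, 11, 10 and 13 without array 1, 3, 4, 5 or 6, against 1166 with all arrays and 1072 without array 2. At an unadjusted p under 0.05 there were 4678 to 5074 probes in the former and 5868 and 6022 in the latter. Leaving out the centring raised the median of all means by 0.10 and changed the split of calls from 416 above and 750 under 0 to 849 and 409, and quantile normalization gave 1298 and 491. The Nr5a2 mean was then -0.81 and -0.80, and the Hhex mean 1.39 and 1.45, each still past the threshold.

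**Figure D3:**
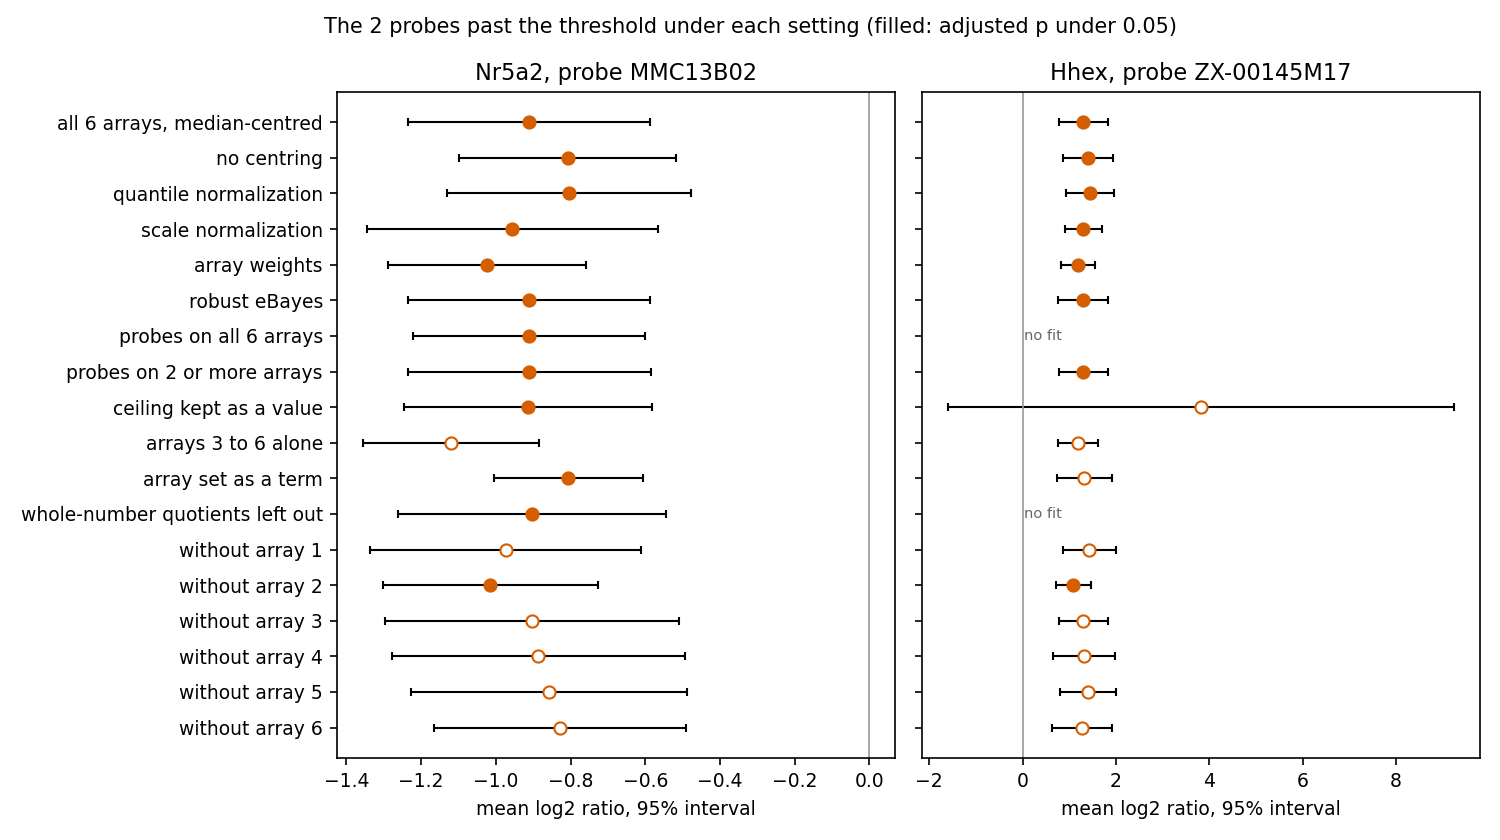
Mean log2 ratio (horizontal axes) of the Nr5a2 and Hhex probes under each setting (vertical axis), with 95% intervals, filled where the adjusted p was under 0.05. Nr5a2 means lie under 0 and Hhex means above 0 in every fit shown, as did each of their array values. The Hhex interval spans 0 when the ceiling is kept as a value.

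Genes that work with these factors or under them were followed on 5 lists. Of 42 tested genes on these partner and target lists, 6 fell and 1 rose, and the median of their 105 probe means was -0.079, against 0.026 over all tested probes. Over all 10818 tested genes, 5.00% had a probe past the threshold under 0 and 3.25% above 0. A gene counted with any 1 probe past the threshold, so genes with many probes counted more easily. These shares were not matched for probes per gene, which were many on some lists, such as 60 probes for 18 acinar genes and 28 for 5 blood genes. Among progenitor partner factors, 2 of 7 tested genes fell and none rose: Foxa1 at -0.65 ± 0.31 (adjusted p 0.039) and Foxa3 at -0.64 ± 0.17 (adjusted p 0.0233), forkhead factors that open chromatin in gut endoderm. The other Foxa3 probe was at -0.15. None of the 7 tested partners in the PTF1 and Pdx1 complexes passed, and the smallest p was that of Tcf4, an E-protein, at 0.33 ± 0.24 (adjusted p 0.0968) at 1 of 6 probes. Of the corepressors and coactivators of Nr5a2, only 2 of 9 listed genes were tested and neither passed, with Nr0b2, an orphan receptor that represses Nr5a2, at -0.31 ± 0.22 (adjusted p 0.102).

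Acinar genes, which PTF1 and Nr5a2 drive, had 4 of 18 tested members that fell and none that rose. Clps, the cofactor of pancreatic lipase, fell at 7 of 9 probes, the lowest at -0.90 ± 0.25 (limma adjusted p 0.0207) and the highest of all 9 at 0.12. Spink1, a trypsin inhibitor, was at -0.82 ± 0.14 (adjusted p 0.0126) at a probe that passed and at -0.26 at its other probe, which did not. Cpa1, a carboxypeptidase found early in tip progenitors, fell at all of its 3 probes, from -0.50 to -0.41. The remaining gene was Pla2g1b, a secreted phospholipase, at -0.39 ± 0.16 (adjusted p 0.0446), which passed at 1 of 10 probes, the other probe means running from -0.19 to 0.26. The median of the 60 acinar probe means was -0.12. Among genes of beta cells, which Pdx1 and Nkx6-1 drive, Ins2 rose at 2 of 3 probes, up to 0.54 ± 0.23 (adjusted p 0.0363), with the remaining probe at 0.68, and the other 7 tested genes did not pass. The median of the 19 beta cell probe means was -0.16, with 9 above 0 and 10 under 0, so the list did not rise with Ins2.

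Markers of other tissues that the dissection could hold also differed between the RNAs. Over all tested genes, 5.00% had a probe that fell and 3.25% one that rose, not matched for probes per gene. Of 8 tested liver genes, 6 fell and none rose, with a median of -0.84 over 14 probes. Afp, the fetal serum protein, fell at 3 of 4 probes, the lowest at -2.06 ± 0.22 and the one that did not pass at 0.0059, and the fibrinogen chains Fgg and Fgb were at -1.14 ± 0.31 and -1.12 ± 0.26 (limma adjusted p 0.00141, 0.0193 and 0.0127). In the stomach and intestine list, 1 of 6 tested genes fell, Gast, the gastrin gene of stomach and fetal islets, at 4 of 7 probes and down to -0.62 ± 0.13 (adjusted p 0.021), with a median of -0.010 over the list. In the endothelial list, Lyve1, a marker of lymphatic vessels where Prox1 is active, fell at 1 of 2 probes (-0.74 ± 0.11, adjusted p 0.0126), 1 of 3 tested genes. The other Lyve1 probe was at -1.05 and did not pass. The median of the 6 probe means of this list was -0.19, with 2 above 0 and 4 under 0, the highest at 0.077. The part of liver or vessel tissue in the values of the fate genes was not tested, and signal levels, which could show whether a marker is near 0, were not used here.

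Of 6 tested neuron and neural crest genes, 2 rose and 1 fell, against 3.25% and 5.00% of all tested genes. The median over the 13 probes of this list was 0.30. They were Elavl4 (0.90 ± 0.30, n = 4, adjusted p 0.0432) and Tubb3 (0.39 ± 0.078, adjusted p 0.0326), both of young neurons, and at both of its probes Ncam1 (-0.44 ± 0.21, adjusted p 0.0472), a cell adhesion gene. Elavl4 passed at 1 of 4 probes, whose means ran from -0.017 to 0.90, and Tubb3 at 1 of 3, from -0.050 to 0.39. The blood list had 2 of 5 tested genes with a probe that rose, Cd53 of leukocytes (0.71 ± 0.12, n = 5, adjusted p 0.0251) and Hba-a1, an alpha globin (0.40 ± 0.19 at 1 of 17 probes, adjusted p 0.049). The Hba-a1 probe means ran from -0.39 to 0.40. Of the 5 Cd53 values 4 were quotients of whole numbers, and 1 array stood at the ceiling. The median of the 28 blood probe means was -0.0515, with 10 above 0 and 18 under 0. Of 8 mesenchyme genes only Sparc, a matrix protein gene, fell (-0.31 ± 0.078 at 1 of 2 probes, adjusted p 0.0453). Epithelium, the tissue in which the fate factors act, was covered by 2 tested genes of 10 listed, and neither passed. Cldn7, a tight junction gene, was at 0.35 ± 0.29 (adjusted p 0.11) at 1 probe, and at 0.85 and 0.020 at the others. Cldn3, the other tested gene, was at -0.26, -0.24 and 0.12. The median of the 6 probe means was 0.071, with 4 above 0 and 2 under 0.

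**Figure D4:**
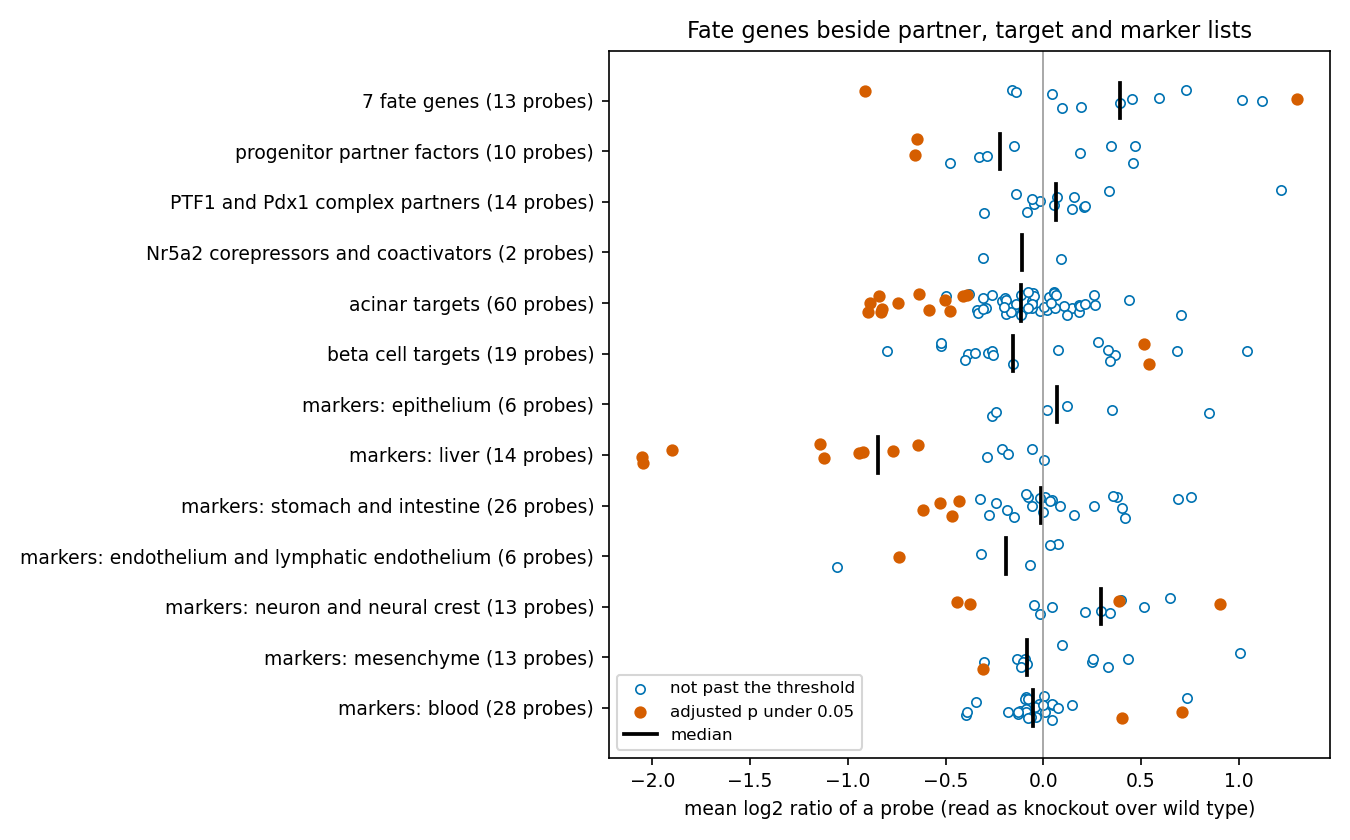
Mean log2 ratio (horizontal axis) of each tested probe of the 7 fate genes and of the partner, target and marker lists (vertical axis), filled where the adjusted p was under 0.05, with the median of each list as a bar. The fate genes have a median of 0.39 and span -0.91 to 1.30, and the liver list stands lowest with a median of -0.84.

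Likeness over arrays was described by Pearson's r of the centred ratios over 6 arrays, among 15554 other probes with 1 symbol and a value on every array. For Nr5a2 the closest were Fam3c (r 0.994, mean -0.26) and Ddx18 (r 0.993, mean 0.19), and 423 probes had r over 0.9. For Pdx1, at probe MMC02C07, they were Apoa5 and Ppp1r3g (both r 0.991). For Ptf1a they were Plp2 (r 0.986) and Sac3d1 (r 0.974). For Nkx6-1, at probe MMC02H01, they were Tmem125 (r 0.992) and Trim71 (r 0.977), and for Nkx6-2, at probe MMC02H10, Kif16bos and Txndc8 (both r 0.989). With 6 values per probe, which share the arrays, such r describe how values vary from array to array, and Ddx18, with its mean on the other side of 0 from Nr5a2, shows that likeness in this sense is not likeness in the ratio. Prox1 and Hhex had no probe with a value on all 6 arrays.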

How the data were processed

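The authors' deposited table holds log2 ratios of the 2 channels of 6 arrays. The base was set from its ceiling value. Neither labels nor files say how signals were scanned, corrected and normalized, or which dye was which: the centring before deposit and the direction stay unknown. Signal over background is unknown, and the number of arrays limits the precision. Of 21888 probes, 18388 had 1 gene symbol in the platform annotation, and 17786 of these were looked up by Entrez ID in RefSeq (GRCm38.p6). Ceiling values were made missing, each array's median was subtracted, and an intercept was fitted to probes with at least 4 values by limma 3.58.1 (lmFit, eBayes; R 4.3.3), giving two-sided p-values that were adjusted by Benjamini-Hochberg, threshold 0.05. Different probes of a gene were kept apart. The fit was tested on simulated data. Figures used matplotlib 3.10.9.

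The members and the lists were chosen with earlier results of these data known. Named genes were every probe of the 7 genes, up to 3 genes past the threshold per list or the gene with the smallest p, and the 2 probes most like each member. Genes in neighbouring wells and Pla2g1b were named after their values were seen. Alternatives covered normalization, weights, eBayes, missing values, the ceiling, array sets, quotients and each array left out.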

Additional observations from a re-analysis of the deposited data

Results flagged for a closer look

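Every member probe, both Sox4 probes and the list probes named above were searched for a single array whose gap to its nearest neighbour took up most of the probe's range. Of 35 probes 10 had such an array, among them 5 of the 13 member probes, where chance was set at about 1 in 20. The share over all tested probes is not given. These counts therefore do not show whether such arrays are more common among the fate genes than elsewhere. Array 2 read -1.03 for Pdx1 (MMC02C07), whose other values ran from -0.19 to 0.22. Array 2 also read 2.15 for Nkx6-1 (MMC03H01), whose other values ran from 0.27 to 0.73. Nkx6-2 had a distant array at all of its 3 probes. Array 6 read 1.05 for MMC02H10, otherwise 0.19 to 0.50. Array 1 read 3.65 for MMC03H10, otherwise 0.17 to 0.74. Array 2 read 0.46 for ZX-00127C12, otherwise -0.52 to -0.16. Without those arrays the means of these Nkx6-2 probes were 0.33, 0.49 and -0.26, so the probes still disagreed in sign.

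Outside the fate genes, array 3 read -0.35 for Sox4 (MMC03H11), otherwise -0.10 to 0.002. For Nr0b2, array 5 read 0.11 and the others -0.55 to -0.30. For Clps (ZX-00129I19), array 3 read -0.42 and the others -1.15 to -0.89. For Fgb (ZX-00135H16), array 2 read -0.60 and the others -1.28 to -1.08. For Sparc (ZA-00026J22), array 1 read -0.15 and the others -0.36 to -0.30.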

How the results depend on the processing

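The count of member probes past the threshold above 0, 1 with the settings of the report, was 4 with quantile normalization, 2 with array weights, and 0 with probes valued on all 6 arrays, with the ceiling kept, with arrays 3 to 6 alone, with the array set as a term and with quotients left out. The zeros for all 6 arrays and for quotients follow from the setting, since Hhex had no value on array 3 and only quotients. The count under 0, also 1, was 0 with arrays 3 to 6 alone. Leaving out 1 array gave 0 to 2 above 0 and 0 to 1 under 0. On the partner and target lists, 1 gene above and 6 under 0 became 0 and 0 with arrays 3 to 6 alone, and 0 to 2 and 0 to 5 with 1 array left out, with the most under 0 without array 2. The limma fits with a count of 0 made 13 calls over all probes on arrays 3 to 6 alone, with 6330 at an unadjusted p under 0.05. Pdx1 changed sign: MMC02C07 was at 0.064, MMC02D08 at -0.052 and PX-00630H15 at -0.079 on arrays 3 to 6 alone, and MMC02D08 at -0.16 with array weights. With 1 array left out, MMC02C07 ranged from -0.24 to 0.012 and MMC02D08 from -0.28 to 0.27. The cause of the other changes was not tested. Prox1 probe MMC01B10 could not be fitted on arrays 3 to 6 alone, with quotients left out, or without array 1, 2, 3 or 5. No paired analysis was possible because the arrays form 1 group, with no other group to pair by replicate number. Each ratio already sets the RNAs against each other on its own array.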
